A study of Mus musculus with 12 samples.

Results

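Dendritic cells labelled Ythdf1-/- were compared with wild-type dendritic cells after overnight culture with necrotic B16-OVA, mouse melanoma cells carrying the model antigen ovalbumin. The members are the 4 RNA-seq libraries of these groups, 2 labelled wild type and 2 labelled Ythdf1-/-, of 12 samples in the series, and all genes of their table were used. The dendritic cells of both groups were grown from mouse bone marrow with GM-CSF, harvested, given the melanoma lysate and purified before RNA extraction. Each genotype also had 2 libraries of dendritic cells alone, which entered the fit as a shared measure of spread and served as the comparison without lysate. The sources used here give neither the age, sex or strain of the mice nor which part of Ythdf1 is altered. The stated purpose was to see how Ythdf1 influences dendritic cells through transcript levels. The 4 RNA immunoprecipitation samples of the series were not analysed here.

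YTHDF1 is a cytoplasmic reader of N6-methyladenosine (m6A), a methyl mark that METTL3 and METTL14 write on mRNA and that FTO and ALKBH5 can remove. Reader binding is known chiefly for promoting translation of marked transcripts, so its loss need not alter their level. Dendritic cells take up dead cells, digest them with lysosomal proteases such as cathepsins, and present the peptides to T cells. Cultures of bone marrow with GM-CSF hold dendritic cells beside macrophage-like cells and granulocytes.

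Values are log2 levels of the table, read as regularized logarithms, and each difference is KO-labelled minus wild type, followed after ± by its standard error in limma. A gene was called at an adjusted p under 0.05 (limma, Benjamini-Hochberg over 11785 genes). Library medians lay between 8.53 and 8.55, and the SD over genes of the difference between the 2 lysate libraries was 0.143 in wild type and 0.112 in KO-labelled. The table holds no read counts, and depth per library is therefore unknown. The labels do not say whether the 2 libraries of a group stem from different mice or cultures, and p-values therefore measure only how far these samples spread, possibly for technical reasons.

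The transcript of Ythdf1 (Entrez 228994) was not called lower under the Ythdf1-/- label. Wild-type lysate libraries had log2 levels of 9.72 and 9.58 for it, and KO-labelled ones 9.51 and 9.46. Both KO-labelled libraries lay below both wild-type libraries, but the groups also did not overlap in 60.6% of all genes tested. The difference was -0.16 ± 0.081 (adjusted p = 0.202). A whole-gene value does not check the labels if an altered transcript is still made, so each direction below rests on the labels. Of the 24 measured genes of the m6A list, which holds writers, erasers and readers, 0 were called (limma), and 1 had an unadjusted p under 0.05. In the fit of only the libraries compared 1 was called higher. Mettl14 differed by -0.15 (adjusted p = 0.237) and Prrc2a, a further reader, by 0.24 (adjusted p = 0.0764).

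Defining markers of dendritic cells were measured in all lysate libraries, beside those of macrophages and granulocytes. Itgax, which encodes CD11c, was at 11.52 and 11.37 in wild type and 11.33 and 11.24 in KO-labelled, and the MHC class II gene H2-Ab1 differed by -0.038. Of 18 listed macrophage and monocyte markers 18 were measured, with a mean log2 level of 11.59 and 11.59 in wild type and 11.37 and 11.41 in KO-labelled. Of 23 listed neutrophil markers 20 were measured, of 14 T and NK cell markers 1, of 10 B cell markers 1 and of 10 erythroid markers 0. These are bulk libraries, in which fewer cells of a type and less RNA per cell cannot be told apart.

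With lysate, 1519 of 11785 genes differed between the genotype labels (12.9%). Of these, 877 were higher in KO-labelled (7.44% of genes tested) and 642 lower (5.45%). Both shares are the background for every count of a gene list with lysate. Most differences were small, with a median absolute log2 difference of 0.35 among the called genes. At least 1.5-fold were 75 of the higher and 47 of the lower genes, and at least 2-fold 1 higher and 12 lower. The median over all genes was -0.0085. Leaving out 1 lysate library lowered the count of called genes: to 193 for KO-labelled replicate 1, 488 for KO-labelled replicate 2, 670 for wild-type replicate 1 and 716 for wild-type replicate 2.

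**Figure D1:**
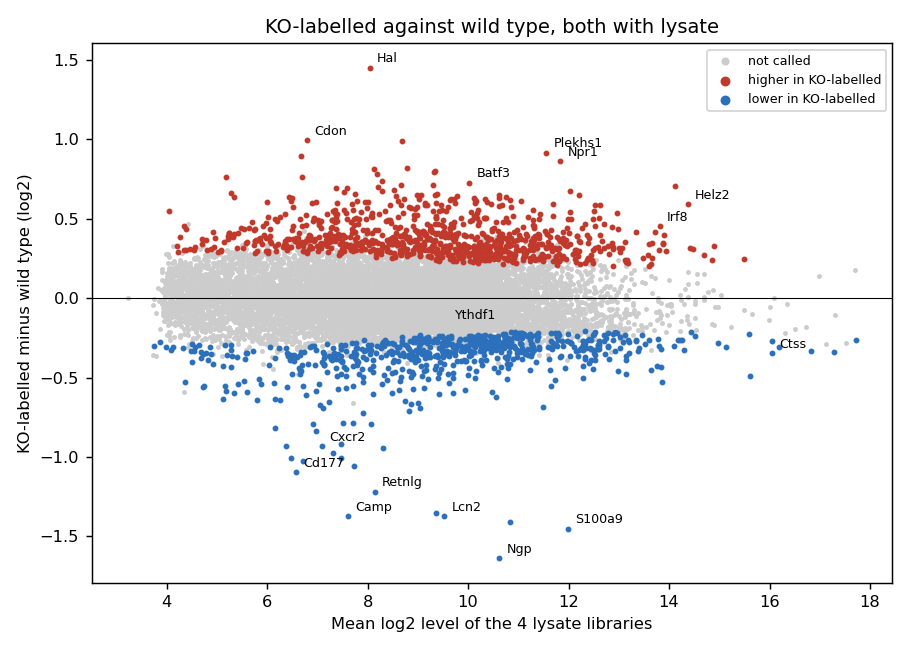
Difference between KO-labelled and wild type with lysate (vertical axis, log2) against the mean log2 level of the 4 lysate libraries (horizontal axis), 1 point per gene, red where called higher, blue where called lower and grey where not called. The deepest falls, down to -1.64 for Ngp, are granule and neutrophil genes, and Hal stands highest at 1.45.

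Neutrophil granule genes were the lowest in the KO-labelled libraries relative to wild type. Ngp (Entrez 18054), neutrophilic granule protein, was at 11.49 and 11.39 in wild type and at 9.80 and 9.80 in KO-labelled. The groups did not overlap, which held for 60.6% of all genes tested and was required of every gene named among the deepest falls. The difference was -1.64 ± 0.073, or 3.11-fold lower (adjusted p = 6.08e-08). S100a9 (Entrez 20202), a subunit of calprotectin, was at 12.52 and 12.91 in wild type and at 11.18 and 11.35 in KO-labelled (-1.45 ± 0.10, adjusted p = 5.13e-06). Its partner S100a8 (Entrez 20201) was at 11.24 and 11.83 against 10.01 and 10.23 (-1.41 ± 0.15, adjusted p = 0.000202). For both subunits wild-type replicate 2 was the higher of its pair.

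Secreted antimicrobial and iron-binding granule proteins followed. Camp (Entrez 12796), the cathelicidin precursor, was at 8.07 and 8.50 in wild type and 6.83 and 6.999 in KO-labelled (-1.37). Lcn2 (Entrez 16819), a lipocalin that binds bacterial siderophores, was at 10.27 and 10.16 against 8.80 and 8.88 (-1.37). Ltf (Entrez 17002), lactoferrin, was at 9.99 and 10.09 against 8.65 and 8.71 (-1.35). In each of these genes the groups were more than 1 log2 unit apart on average. The other genes among the 15 deepest falls were Retnlg (-1.22), a resistin-like hormone, Cd177 (-1.09), a neutrophil surface protein, Stfa2 (-1.06), Asprv1 (-1.02), Stfa1 (-1.01), Stfa2l1 (-1.005), Cstdc5 (-0.97), Fpr1 (-0.94) and Cxcr2 (-0.93). Stfa1, Stfa2, Stfa2l1 and Cstdc5 belong to a cluster of near-identical protease inhibitors of the stefin A kind, so their separate values are uncertain. Fpr1 senses formylated bacterial peptides and Cxcr2 is the receptor of neutrophil-attracting chemokines.

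As a list, 16 of 20 measured neutrophil markers were lower and 0 higher, with a median of -0.93 against -0.0085 over all genes. Averaged over the list, wild-type lysate libraries were at 8.53 and 8.62 and KO-labelled ones at 7.71 and 7.76 (log2). Between 12 and 14 were lower with any 1 of the 4 lysate libraries left out. All 15 of the deepest falls kept their calls without each of these libraries, and all 15 were also called lower without lysate. Of 5 measured eosinophil markers 3 were lower, Ear1 (-0.72), Ear2 (-0.59) and Ear6 (-0.59), closely related ribonuclease genes whose reads the counting may share.

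**Figure D2:**
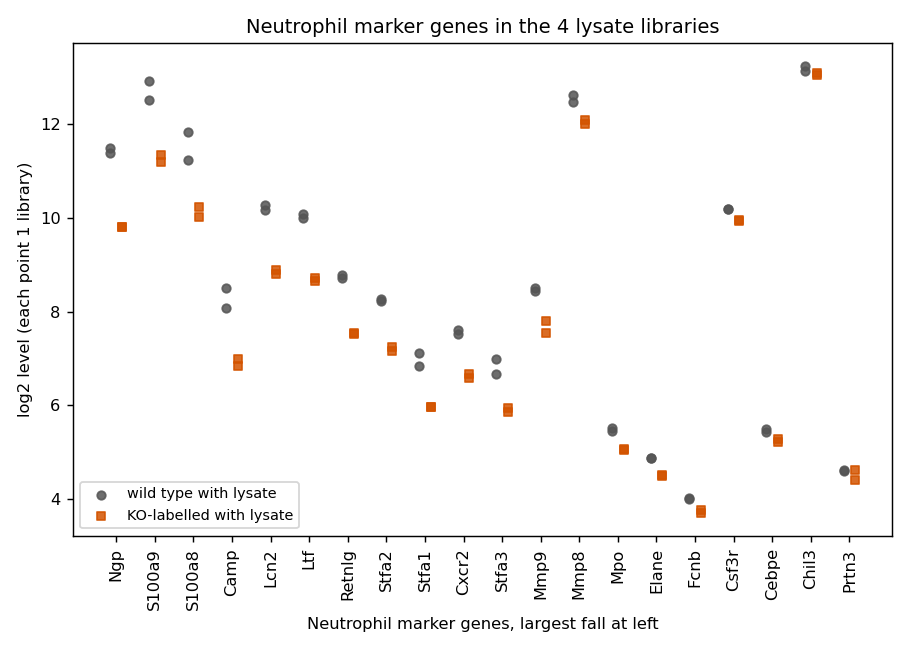
Log2 level (vertical axis) of the 20 measured neutrophil marker genes (horizontal axis, deepest fall at the left) in the 2 wild-type (grey circles) and 2 KO-labelled (orange squares) lysate libraries, 1 point per library. Ngp falls from 11.49 and 11.39 to 9.80 and 9.80, while the 4 genes that were not called, Csf3r, Cebpe, Chil3 and Prtn3, differ by at most 0.24 on average.

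Promoters of 4 of these granule genes are shown because the genes moved together and hold the same short run of bases. The windows are the 250 bases before the start in RefSeq's GRCm38.p6, a later build than that of the deposited files, written 5′ to 3′ with TTGCNNAA, a run like that bound by C/EBP factors, in capitals on either strand.
Ngp, chr9:110419558-110419807, plus strand: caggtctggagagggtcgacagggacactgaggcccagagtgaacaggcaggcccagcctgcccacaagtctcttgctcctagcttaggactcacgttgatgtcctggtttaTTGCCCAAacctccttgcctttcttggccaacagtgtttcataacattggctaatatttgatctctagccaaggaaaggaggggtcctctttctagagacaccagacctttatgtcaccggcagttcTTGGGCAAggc
Ltf, chr9:111019042-111019291, plus strand: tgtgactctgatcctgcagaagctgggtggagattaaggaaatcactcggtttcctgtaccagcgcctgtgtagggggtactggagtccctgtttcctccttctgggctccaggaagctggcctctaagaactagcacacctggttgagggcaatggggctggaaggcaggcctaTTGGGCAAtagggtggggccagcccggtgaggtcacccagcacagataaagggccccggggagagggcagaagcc
Lcn2, chr2:32387740-32387989, minus strand: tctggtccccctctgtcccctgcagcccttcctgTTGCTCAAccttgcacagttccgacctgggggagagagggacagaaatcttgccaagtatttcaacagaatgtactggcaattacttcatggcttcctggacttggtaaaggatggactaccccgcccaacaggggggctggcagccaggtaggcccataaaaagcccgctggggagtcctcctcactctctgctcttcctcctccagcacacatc
S100a9, chr3:90695722-90695971, minus strand: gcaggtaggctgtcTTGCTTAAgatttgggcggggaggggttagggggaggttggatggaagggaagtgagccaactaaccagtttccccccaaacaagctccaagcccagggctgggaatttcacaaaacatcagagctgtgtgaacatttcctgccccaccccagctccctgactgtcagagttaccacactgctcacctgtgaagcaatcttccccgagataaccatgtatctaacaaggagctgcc
This run was chosen after the genes lower in KO-labelled libraries had been seen. Searched on both strands in 300 bases around the start, it was found in 8 of 18 neutrophil markers with a window (44.4%), in 17.8% of the genes called lower, 9.25% of those called higher and 10.2% of all 9426 genes with a window. The windows of genes called lower also had less GC, with a median of 56.3% against 62.0% in genes called higher and 60.7% in all. A match is a description of sequence and no evidence of a binding site.

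Of 16 measured markers and regulators of conventional dendritic cells, 6 were higher in the KO-labelled libraries, 2 lower and 8 not called, with a median of 0.18. The genes called higher were 4 transcription factors and the receptors Flt3 and Ccr7. Batf3 (Entrez 381319), a factor needed for cross-presenting dendritic cells, was at 9.45 and 9.88 in wild type and at 10.34 and 10.44 in KO-labelled (0.73 ± 0.13, adjusted p = 0.0037). Irf8 (Entrez 15900), which directs the same lineage, was at 13.58 and 13.59 against 14.05 and 14.02 (0.45, adjusted p = 0.00179). Irf4 (Entrez 16364), of the other conventional lineage, was at 9.34 and 9.24 against 9.77 and 9.70 (0.45, adjusted p = 0.00183). None of these groups overlapped, though this was required of Batf3 as a gene among the highest rises. The wild-type libraries of Batf3 lay farther apart than those of Irf8 or Irf4. Zbtb46 (0.41), a factor of the conventional lineage, Flt3 (0.29), the receptor of its growth factor, and Ccr7 (0.31), the homing receptor to lymph nodes, were higher too. Ltb4r1 (-0.42), a leukotriene B4 receptor, and Clec10a (-0.28), a galactose-type lectin, were lower. Not called were the surface markers Clec9a (0.028), of the cross-presenting lineage, Itgae (0.19), Dpp4 (0.22), Kit (0.17), Cd24a (-0.28) and Itgax (-0.16), and the factors Id2 (0.050) and Bcl11a (-0.20). Without KO-labelled lysate replicate 1, 0 of the 16 were called. Adjusted p was then 0.0573 for Batf3, 0.0545 for Irf8, 0.0618 for Irf4, 0.101 for Zbtb46 and between 0.174 and 0.366 for Flt3, Ccr7, Ltb4r1 and Clec10a, and Batf3 also missed the threshold if KO-labelled lysate replicate 2 was left out (0.059). Macrophage and monocyte markers moved the other way, with 5 of 18 lower and 0 higher, among them Ly6c2 (-0.59), F13a1 (-0.44), Adgre1 (-0.40), which encodes F4/80, and Lyz2 (-0.33), lysozyme. The part of these shifts in marker levels in the other gene groups was not tested.

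Genes of dendritic cell maturation and T cell costimulation were higher in 18 of 32 cases and lower in 0, with a median of 0.25. Cd80 (Entrez 12519), a costimulatory ligand of CD28, was at 10.32 and 10.25 in wild type and at 11.04 and 10.83 in KO-labelled (0.65 ± 0.096, adjusted p = 0.00105). Il12b (Entrez 16160), the shared p40 subunit of interleukins 12 and 23, was at 10.19 and 10.13 against 10.83 and 10.68 (0.60 ± 0.079, adjusted p = 0.000531). Il4i1, a secreted amino acid oxidase, was at 10.79 and 10.70 against 11.44 and 11.26 (0.61, adjusted p = 0.00117). Each KO-labelled library was above each wild-type library in all 3. Cd83 (0.40), Relb (0.47) and Nfkb2 (0.35) of the non-canonical NF-kB pathway, Il15ra (0.44), Fscn1 (0.35), Cd40 (0.29) and Cd86 (0.26) were among the others. Without KO-labelled lysate replicate 1 only 2 of the 32 were called, namely Cd80 and Il12b, with adjusted p from 0.0528 for Il4i1 to 0.343 for Cd40 among the others named, and 9 to 11 were called with any other lysate library left out. Without lysate 14 of the 32 were higher and 1 lower.

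Part of the receptors that sense microbes were lower. Of 35 pattern recognition receptors and lectins 16 were lower and 0 higher, with a median of -0.24, beside 5.45% lower over all genes tested. Of the Toll-like receptors only Tlr2 and Tlr4 (-0.42) were called. Others, such as Tlr1 (-0.045) and Tlr9 (0.10), and the cytosolic sensor Nod2 (0.15) were not. Tlr2 (Entrez 24088), the receptor of bacterial lipoproteins, was at 10.86 and 10.86 in wild type and at 10.23 and 10.24 in KO-labelled (-0.62 ± 0.063, adjusted p = 0.000125). Clec5a, a lectin that signals through DAP12, was at 9.12 and 9.03 against 8.40 and 8.46 (-0.64), and Mgl2, a galactose-type lectin, at 9.93 and 9.99 against 9.47 and 9.45 (-0.50). The groups were apart in all 3, and between 7 and 12 of the list were lower with 1 lysate library left out. Inflammatory NF-kB targets share Tlr2, Cd14, Clec4d and Clec4e with the pattern recognition list, and Marco with the Fc and scavenger list. They were lower in 14 of 38 cases and higher in 3, with a median of -0.14. The 3 higher were Malt1 (0.45), Nfkbie (0.34) and Nfkbia (0.24). How far these 3 calls depend on 1 library is not given here. Tnf (0.013), Il6 (0.24) and Cxcl1 (-0.073) were not called. Marco (-0.71), a scavenger receptor, Acod1 (-0.53), which makes itaconate, Ccl6 (-0.53), a chemokine, and Sod2 (-0.47), the mitochondrial superoxide dismutase, were lower, and 6 to 11 of the list were lower with 1 lysate library left out. Of 34 Fc, scavenger and dead-cell uptake receptors 8 were lower and 1 higher, beside 5.45% lower and 7.44% higher over all genes tested. Trem1 (-0.57) and the adaptors Fcer1g (-0.38) and Tyrobp (-0.34) were lower, and Tyro3 (0.34) was higher. With 1 lysate library left out the median of this list lay between -0.17 and -0.14. Of 25 chemokine receptors and adhesion molecules 11 were lower and 2 higher, beside the same shares over all genes. Cd9 (-0.43), a tetraspanin, and C5ar1 (-0.44), the receptor of complement C5a, were lower beside Cxcr2. With 1 lysate library left out the median of this list lay between -0.31 and -0.22. Fcer1g, Tyrobp, Cd9 and C5ar1 lost their calls without KO-labelled lysate replicate 1 (adjusted p between 0.0549 and 0.126). Tlr2, Clec5a, Mgl2, Marco, Acod1, Ccl6, Sod2 and Trem1 kept theirs without each of the 4 lysate libraries.

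**Figure D3:**
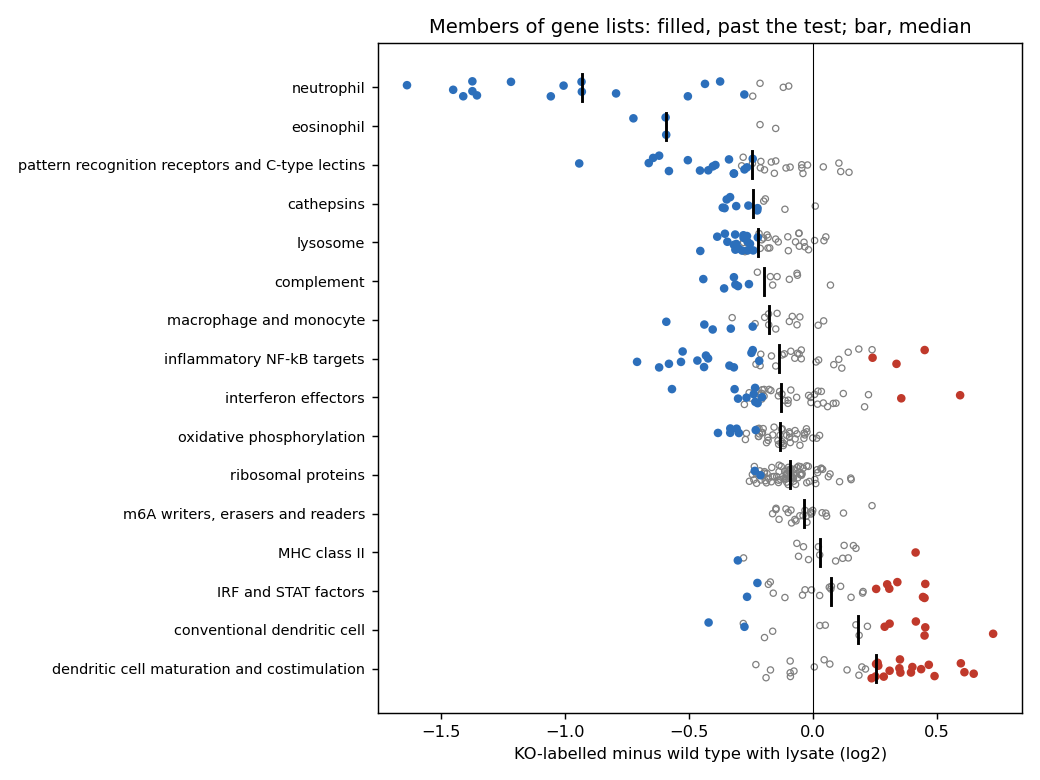
Log2 difference between KO-labelled and wild type with lysate (horizontal axis) of each measured member of 16 gene lists (vertical axis), filled where called (red higher, blue lower), with a black bar at each list's median. Neutrophil markers lie farthest left with a median of -0.93, and maturation genes farthest right with a median of 0.25.

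Lysosomal genes, the cathepsins among them, were lower by less than 0.5 log2 units. Of 12 measured cathepsins 8 were lower and 0 higher, with a median of -0.24. Ctsc (Entrez 13032), a dipeptidyl protease that activates granule proteases, was at 12.29 and 12.15 in wild type and at 11.83 and 11.88 in KO-labelled (-0.36 ± 0.072, adjusted p = 0.00615). Ctss (Entrez 13040), which cleaves the invariant chain of MHC class II, was at 16.18 and 16.27 against 15.86 and 15.90 (-0.35 ± 0.069, adjusted p = 0.00645). Ctsd, an aspartic protease, was at 16.26 and 16.41 against 15.99 and 16.07 (-0.31, adjusted p = 0.0187). The groups did not overlap in these 3 genes. Ctse (-0.36), Ctsk (-0.33), Ctsz (-0.26), Ctsl (-0.22) and Ctsh (-0.22) were also called lower, while Ctsa (-0.20), Ctsb (-0.19), Ctso (-0.11) and Ctsf (0.0093) were not called. Without KO-labelled lysate replicate 1, 0 of the 12 cathepsins were called, with adjusted p = 0.116 for Ctsc and 0.105 for Ctss. Only 1 was called if KO-labelled lysate replicate 2 was left out, and 4 without either wild-type lysate library. Ctsc and Ctsz lost their calls without wild-type lysate replicate 1 as well, and Ctsd without wild-type lysate replicate 2.

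Of 45 lysosome genes outside the cathepsin family 18 were lower and 0 higher, with a median of -0.22. Gm2a (Entrez 14667), the activator of ganglioside breakdown, was at 13.95 and 13.80 in wild type and at 13.42 and 13.43 in KO-labelled (-0.45 ± 0.067, adjusted p = 0.00107), and kept its call without each lysate library. Atp6ap1 (-0.35), a subunit of the proton pump, Tpp1 (-0.31), a peptidase, and Lipa (-0.30), the acid lipase, were lower and lost their calls without KO-labelled lysate replicate 1 (adjusted p between 0.0718 and 0.115). Between 1 and 10 of the list were called with 1 lysate library left out, 1 and 2 of them when the KO-labelled replicate 1 or 2 was the one removed. Without lysate 4 of the 12 cathepsins and 17 of the 45 lysosome genes were lower and 0 higher. No cathepsin was called in the test of the difference between the effects with and without lysate.

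MHC class II genes were called about as often as all genes. Of 15 measured 1 was higher and 1 lower, beside 7.44% higher and 5.45% lower over all genes tested, with a median of 0.027. Ciita (Entrez 12265), the transactivator of the class II genes, was at 9.44 and 9.41 in wild type and at 9.90 and 9.79 in KO-labelled (0.41 ± 0.076, adjusted p = 0.00414). H2-DMa, a peptide-loading chain, was at 10.86 and 10.93 against 10.55 and 10.63 (-0.30, adjusted p = 0.0126). Both pairs were apart, and both calls were lost without KO-labelled lysate replicate 1 (adjusted p = 0.105 for Ciita, up to 0.182 for H2-DMa). The chains H2-Ab1 (-0.038) and Cd74 (-0.058) were not called. In the list of MHC class I and cross-presentation 6 of 32 were lower and 2 higher. Calr (-0.43), a chaperone of peptide loading, Rac2 (-0.42) and Cybb (-0.37), parts of the phagosomal oxidase, were lower and H2-Q7 (0.43), a nonclassical class I gene with close copies, was higher. These 4 calls also ended without KO-labelled lysate replicate 1 (adjusted p between 0.0555 and 0.0951).

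Interferon effectors were more often lower than higher, and the factors above them more often higher. Of 44 interferon effectors 9 were lower and 2 higher, with a median of -0.13. Cxcl10 (Entrez 15945), a T cell-attracting chemokine, was at 9.43 and 9.37 in wild type and at 8.78 and 8.89 in KO-labelled (-0.57 ± 0.089, adjusted p = 0.00145). Helz2, a helicase, was at 14.06 and 14.08 against 14.74 and 14.58 (0.59 ± 0.075, adjusted p = 0.000384). Mx1, an antiviral GTPase, was at 12.89 and 12.98 against 13.35 and 13.23 (0.36, adjusted p = 0.00453). All 3 had libraries apart by genotype label, in opposite directions. Without 1 lysate library only 0 to 2 of the list were lower. Cxcl10 missed the threshold without KO-labelled lysate replicate 1 (adjusted p = 0.0522), and so did Mx1 (0.115). Of the IRF and STAT list, which holds the transcription factors, kinases and receptors of this pathway, 7 of 24 were higher and 2 lower. Stat4 (0.44), which acts below interleukin 12, and Irf1 (0.30) were higher beside Irf8 and Irf4. Without KO-labelled lysate replicate 1 none of the 24 was called (limma), and adjusted p was 0.0806 for Stat4 and up to 0.126 for Irf1. Of 18 guanylate-binding and immunity-related GTPases 2 were called, Gbp8 (0.60) and Gbp4 (0.34), both higher, beside 7.44% higher over all genes tested. The others were not called and lay on both sides of 0, from -0.32 for Gvin1 to 0.23 for Gbp9. With 1 lysate library left out the median of this list lay between -0.14 and -0.079. Gbp8 missed the threshold without KO-labelled lysate replicate 1 and Gbp4 without each lysate library. Without lysate 35 of the 44 effectors were lower and 2 higher (median -0.36). None of the 44 was called in the test of the difference between the effects with and without lysate, though Irf7 of the IRF and STAT list was.

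The promoter of Cxcl10 is given as an example of the interferon-stimulated response element. Its 250 bases before the start, from the same RefSeq table and build, hold GAAANNGAA, an ISRE-like run, in capitals.
Cxcl10, chr5:92348890-92349139, minus strand: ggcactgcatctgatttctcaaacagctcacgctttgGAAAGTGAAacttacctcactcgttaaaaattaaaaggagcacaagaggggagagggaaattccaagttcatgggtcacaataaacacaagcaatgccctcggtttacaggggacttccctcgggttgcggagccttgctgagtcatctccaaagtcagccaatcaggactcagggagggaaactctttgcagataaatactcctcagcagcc
This run was found on either strand in 20 of 33 interferon effectors with a window (60.6%), in 14.3% of the genes called lower, 8.37% of those called higher and 8.75% of all genes with a window. A second ISRE-like run, AANNGAAAC, which can overlap the first, was found in 10.96%, 6.61% and 5.74%, and the AP-1-like TGANTCA in 9.98%, 7.49% and 6.35%, in the same order.

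Metabolic genes were called in both directions, beside 7.44% higher and 5.45% lower over all genes tested. With 1 lysate library left out the list medians were between -0.23 and -0.17 for glycolysis and hypoxia and between -0.19 and -0.15 for NRF2 targets. They were between -0.19 and -0.13 for cholesterol synthesis and between -0.15 and -0.13 for lipid handling. Of 36 glycolysis and hypoxia genes 10 were lower and 4 higher, with Aldoc (-0.61), Slc2a3 (-0.59), a glucose transporter, and Egln3 (-0.54), an oxygen sensor, lower and Pfkfb3 (0.43), an activator of glycolysis, higher. Of 30 NRF2 targets 7 were lower and 0 higher, with Gsr (-0.44), glutathione reductase, and Fth1 (-0.34), ferritin heavy chain, among them. Of 30 cholesterol synthesis genes 4 were lower and 1 higher, Pmvk (0.38), a kinase of the mevalonate pathway. Lipid handling and LXR targets were lower in 5 of 29 cases, with Apoc2 (-0.60), an apolipoprotein, and higher in 3. In the list of arginine, itaconate and prostaglandin metabolism 6 of 24 were lower and 1 higher. Alox5 (-0.55) and its activating protein Alox5ap (-0.45), which start leukotriene synthesis, Acod1 and Arg1 (-0.47), arginase, were among the lower ones, Ltc4s (0.36), leukotriene C4 synthase, was higher, and the prostaglandin enzyme Ptgs2 (-0.17, adjusted p = 0.298) was not called. Aldoc, Slc2a3, Egln3, Pfkfb3, Apoc2, Alox5 and Alox5ap kept their calls without each lysate library, whereas Gsr, Fth1, Pmvk and Arg1 lost theirs without KO-labelled lysate replicate 1 (adjusted p between 0.0826 and 0.201). Ltc4s lost its call without each of the 4 (adjusted p between 0.151 and 0.254).

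In the list of matrix proteases, galectins and annexins, which also holds matrix proteins, 11 of 30 genes were lower and 2 higher. Mmp9 (-0.79) and Mmp8 (-0.50), neutrophil granule proteases, Fn1 (-0.52), fibronectin, and Lgals1 (-0.39), a galectin, led them. Complement genes were lower in 6 of 14 cases, with Cfp (-0.36), properdin, C3 (-0.32) and Cfb (-0.31). Of these, Mmp9 and Fn1 kept their calls without each lysate library, and the others lost theirs without KO-labelled lysate replicate 1 (adjusted p between 0.0512 and 0.127). Of the GM-CSF list 4 of 20 genes were higher and 0 lower: Socs2 (0.40) and Cish (0.39), feedback inhibitors of STAT5, and the receptor chains Csf2rb (0.25) and Csf2rb2 (0.24), near-identical copies. All 4 calls were lost without KO-labelled lysate replicate 1 (adjusted p between 0.0804 and 0.273).

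Few translation genes were called, beside 12.9% of all genes tested (7.44% higher and 5.45% lower). Ribosomal protein genes were called in 2 of 80 cases, Rps24 (-0.24) and Rpl23 (-0.21), and translation factors in 2 of 40, Eif5a (-0.24) and Eif2s3x (-0.24), all lower. The factors were thus called lower about as often as all genes. The ribosomal median was -0.093. Without wild-type lysate replicate 1 the number of lower ribosomal genes was 10, and without either KO-labelled lysate library 0. Of 42 proliferation genes 7 were lower and 1 higher, with a median of -0.13, with Mki67 (-0.46), Cenpe (-0.46) and Top2a (-0.36) lower and Tk1 (0.37) higher. Of 47 oxidative phosphorylation genes 6 were lower, of 31 genes of the unfolded protein and ATF4 response 6 lower and 3 higher, with Sesn2 (0.50), a stress-induced inhibitor of mTORC1, higher. Of 32 apoptosis and p53 targets 4 were higher, led by Bbc3 (0.54), which encodes PUMA. None of the 7 sex chromosome genes was called except Eif2s3x. Among these named genes Sesn2 kept its call without each lysate library and the others lost theirs without KO-labelled lysate replicate 1 (adjusted p between 0.0679 and 0.295), most of them without further lysate libraries too.

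In the melanocyte list 2 of 6 measured genes were higher in the KO-labelled lysate libraries and 0 lower. Tyrp1, a melanin enzyme, was at 5.86 and 5.71 in wild type and at 6.25 and 6.08 in KO-labelled (0.38 ± 0.092, adjusted p = 0.0177), and Dct at 5.80 and 5.95 against 6.20 and 6.13 (0.29 ± 0.087, adjusted p = 0.0468). The libraries did not overlap, and both calls were lost without KO-labelled lysate replicate 1 or wild-type lysate replicate 2 (adjusted p up to 0.28). The others were not called, with differences of 0.12 for Pmel, 0.093 for Slc45a2, -0.14 for Mitf and -0.18 for Gpnmb, the last also a macrophage gene. Tyrp1 and Dct transcripts can come from the added melanoma cells, and their part in the other results was not tested.

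The highest genes in KO-labelled libraries were of mixed function. Hal (Entrez 15109), histidine ammonia-lyase, was at 7.27 and 7.37 in wild type and at 8.72 and 8.82 in KO-labelled (1.45 ± 0.088, 2.73-fold, adjusted p = 1.11e-06). Cdon (Entrez 57810), a Hedgehog co-receptor, was at 6.23 and 6.37 against 7.35 and 7.24 (1.00 ± 0.090). Plekhs1 (Entrez 226245), a pleckstrin homology domain protein, was at 11.01 and 11.18 against 12.12 and 11.90 (0.92 ± 0.083). Both KO-labelled libraries were above both wild-type libraries in each, which the choice of the highest rises required. Ada (0.90), adenosine deaminase, Npr1 (0.86), the receptor of atrial natriuretic peptide, Cdh23 (0.82), Fgf1 (0.81), Mylk (0.80), myosin light chain kinase, Tle2 (0.80), Ablim1 (0.78), Itga3 (0.76), Hand1 (0.76) and Vipr2 (0.74), a receptor of vasoactive intestinal peptide, completed the 15 highest rises with Col20a1 and Batf3. Nr4a2 (0.59), an orphan nuclear receptor, was the immediate early gene called higher of 29. All 15 were also called higher without lysate, and 14 of them kept their calls without each lysate library, with Batf3 the exception.

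Genes beside Ythdf1 were higher more often than lower. Of the 25 measured genes on each side of Ythdf1 in gene order, 50 in all, 13 were higher, against 7.44% of all genes, and 0 lower, with a median of 0.11. Col20a1 (Entrez 73368), a collagen chain gene next but 1 to Ythdf1, was at 8.20 and 8.16 in wild type and at 9.25 and 9.10 in KO-labelled (0.99 ± 0.079, adjusted p = 1.58e-05). Lime1, an adaptor of lymphocyte signalling, was at 8.61 and 8.88 against 9.40 and 9.39 (0.65), and Srms, a tyrosine kinase, at 8.39 and 8.37 against 8.97 and 8.97 (0.59). The groups were apart in all 3, which the choice of the highest rises required of Col20a1. The others were Uckl1os (0.66), Helz2, Ss18l1 (0.51), Rtel1 (0.45), Zbtb46, Zgpat (0.41), Ptk6 (0.40), Mrgbp (0.38), Arfrp1 (0.36) and Zfp512b (0.33). Of the 13, 2 come before and 11 after Ythdf1, and 9 overlap another annotated gene, so their reads may be shared. Helz2 and Zbtb46 thus count both here and in the interferon and dendritic cell lists. Between 5 and 11 were called with 1 lysate library left out. Col20a1, Lime1, Srms, Uckl1os and Helz2 kept their calls in each case, and the other 8 lost theirs without KO-labelled lysate replicate 1 (adjusted p between 0.063 and 0.184 at most). Without lysate 13 of the 50 were higher and 2 lower. The part of the chromosome near the altered gene in these values was not tested.

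**Figure D4:**
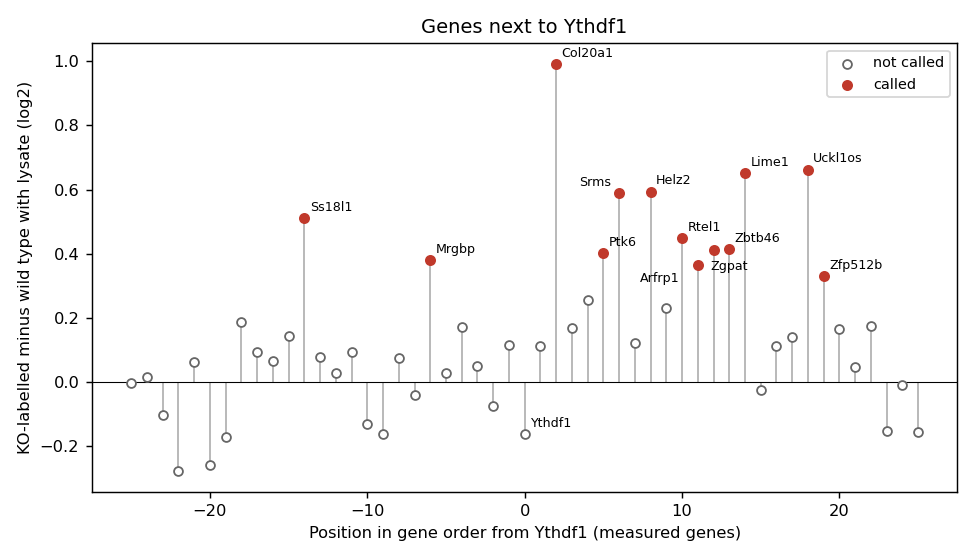
Log2 difference between KO-labelled and wild type with lysate (vertical axis) of Ythdf1 and the 25 measured genes on each side of it, by position in gene order (horizontal axis), red where called and open where not. Called genes number 2 to the left and 11 to the right, and Col20a1 is highest at 0.99.

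Transcript composition moved with the difference. Genes called higher had a median GC content of 52.6% and a median length of 4204.5 bases, those called lower 48.3% and 2689 bases, and all genes 49.7% and 3397 bases. Across genes the difference had a Spearman rho of 0.22 with GC content and 0.20 with length, as a description over genes that share libraries. After a fit that took out each library's dependence on GC and length, 1245 genes were higher and 1305 lower, and the neutrophil list had 16 lower. The same removal gave 22 maturation genes higher, 10 cathepsins lower, 20 glycolysis and hypoxia genes lower, 14 NRF2 targets lower, 16 interferon effectors lower, 12 cholesterol synthesis genes lower and 4 MHC class II genes higher. The part of composition in the differences was not tested otherwise.

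Most of the larger genotype differences were present without lysate as well. Without lysate 1915 genes were called (16.2%), 827 higher (7.02%) and 1088 lower (9.23%), from libraries that the lysate comparison does not use in its means. Called higher in both were 505 genes, 57.6% of those with lysate and 61.1% of those without, and called lower in both were 419, 65.3% and 38.5%. Across genes the differences had a Pearson r of 0.71 and a Spearman rho of 0.64. This is a description over genes, and both sets of calls take each gene's spread from 1 fit. Only Ly6a (Entrez 110454), a surface antigen, was called in opposite directions, at 10.08 and 10.18 in wild type and 10.37 and 10.42 in KO-labelled with lysate (0.26, adjusted p = 0.0369) against -0.31 without. Its test of the difference missed the threshold (0.57, adjusted p = 0.0753), and its call with lysate was lost without each of the 4 lysate libraries in turn.

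The test of the difference between the genotype effects with and without lysate called 13 genes (0.11%). In all 13 the KO-labelled minus wild-type difference was lower without lysate than with it. With lysate it was above 0 in Apoa1 (0.0036), Hspa1a (0.21) and Hspa1b (0.27), none of them called there. With lysate, Irf7, a factor that amplifies type I interferon, was at 11.83 and 11.91 in wild type and 11.81 and 11.85 in KO-labelled, an overlap of the groups, and differed by -0.042 against -0.73 without lysate. Ly6c2 (-0.59 against -1.27), a monocyte antigen with the close copy Ly6c1 (-0.66 against -1.39), Hp (-0.69 against -1.45), haptoglobin, and Trem1 (-0.57 against -1.24) were lower in both. C3 (-0.32 against -0.99) and Cfb (-0.31 against -0.92) of the complement system followed the same order. No gene of the neutrophil list was among the 13, nor any of the 15 highest rises or 15 deepest falls. With wild-type lysate replicate 1 or either KO-labelled lysate library removed, 0 genes were called (limma). Removing wild-type lysate replicate 2 left 2, wild-type alone replicate 1 left 2, its replicate 2 left 4, KO-labelled alone replicate 1 gave 32 and its replicate 2 gave 18.

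**Figure D5:**
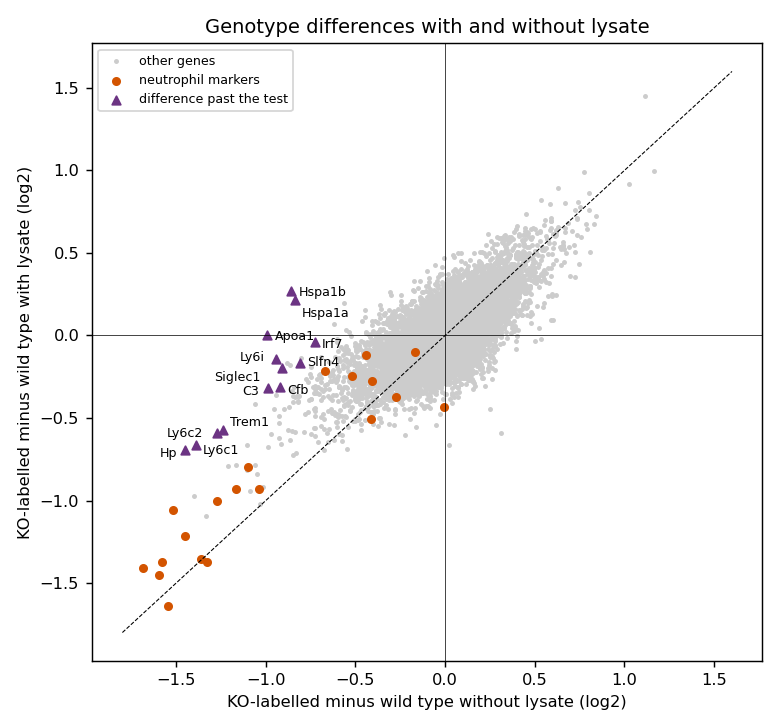
Difference between KO-labelled and wild type with lysate (vertical axis, log2) against the same difference without lysate (horizontal axis, log2), 1 point per gene, with the line of equality dashed. Most neutrophil markers (orange) lie low on both axes, and the 13 genes past the test of the difference (purple triangles) lie above the line at the left.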

How the data were processed

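RNA was sequenced from purified mouse bone marrow dendritic cells with a stranded mRNA kit, per the labels' protocols. The deposited log2 values per Entrez gene were read as made by the authors with the regularized logarithm of DESeq2, an inference from the table's name and the submitters' processing notes. As tools of the authors these notes list STAR, deepTools and DESeq2, and as build mm9. The sources used here name no counting tool, strand setting or annotation. This transformation pulls low genes towards their mean, so their differences are understated. No counts were given, so no counting error can be stated. Groups came from the sample titles.

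Symbols, gene order and promoters came from RefSeq (GRCm38.p6), and 11744 of 11786 identifiers had a symbol. Promoter windows matched 9426 of the genes tested. GC content and length came from GENCODE transcripts for 11486. Where another build was used it served for names, neighbours and sequence only. Genes with a largest group mean of at least 4 were tested, which left out 1. Genes were tested with limma 3.58.1 (R 4.3.3; lmFit, then eBayes with trend) on 4 group means of 8 libraries, two-sided, with 4 residual and 9.33 prior degrees of freedom, tested on simulated data. Adjusted p-values in the text are from this limma fit, or from the same fit with the library named left out. Figures used Python 3.11.15.

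Named genes were Ythdf1, the 15 highest rises and 15 deepest falls without overlap of the groups (no predicted symbols), up to 4 members of each list by p, the genes past the test of the difference of effects and the called neighbours. Flt3, Ccr7, Ltb4r1, Clec10a, Itgax, H2-Ab1, Cd74, Relb, Nfkb2, Il15ra, Fscn1, Cd40, Cd86, Ltc4s, Ptgs2, the remaining cathepsins, dendritic cell and melanocyte genes and the neutrophil markers not called were named outside this rule after their values were seen. Malt1, Nfkbie, Nfkbia, Tnf, Il6, Cxcl1, Gbp9, Tlr1, Tlr4, Tlr9, Nod2 and Tyro3 were also named after their values were seen, and may lie outside the counts of named genes. Members and lists were chosen with earlier results of these data known. No list was tested as a set. Alternatives were leaving out each library, a replicate block, removal of GC and length trends, other filters, scalings, variance models and thresholds. A group reduced to 1 library takes its spread from the others. Left out were the RNA immunoprecipitation samples.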

Additional observations from a re-analysis of the deposited data

Results flagged for a closer look

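In 13 genes the genotype difference with lysate differed from that without lysate by limma's test of the difference itself (adjusted p under 0.05). Apoa1 (difference of the effects 0.99 ± 0.11, adjusted p = 0.00467) was at 4.29 and 4.17 in wild type alone and at 3.24, rounded to 2 decimals, in the other 6 libraries. It passed the filter on low values only through wild type alone, the group in which it was high, so its p is no independent support. Immune and interferon-related genes were Irf7 (0.68), Slfn4 (0.64), Siglec1 (0.71), Ly6c2 (0.68), Ly6c1 (0.73), Ly6i (0.80) and Trem1 (0.67). Acute-phase and complement genes were Hp (0.76), C3 (0.67) and Cfb (0.61). The near-identical heat shock genes Hspa1a (1.05) and Hspa1b (1.13) had KO-labelled minus wild-type differences of 0.21 and 0.27 with lysate and of -0.84 and -0.86 without. None of these genes was called without wild-type lysate replicate 1 or either KO-labelled lysate library.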

How the results depend on the processing

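Between genotype labels with lysate, 1519 genes were called (877 higher, 642 lower). With 1 library left out the count lay between 193 and 2057 (116 to 1136 higher, 77 to 921 lower). It was 2550 (1305 lower) with GC and length trends removed, 2323 (1179 lower) with these and a replicate block, 526 (326 and 200) at a threshold of 0.01, 2427 (1131 lower) at 0.1, and 2265 (1207 higher, 1058 lower) in the fit of only the libraries compared. Without lysate the count of 1915 became 3056 (1407 and 1649) and 2878 (1310 higher) under the same 2 removals, 1192 (488 and 704) in the fit of only the libraries compared, 956 (371 and 585) at 0.01, and 1174 to 1865 with 1 library left out (453 to 830 higher, 677 to 1073 lower). The 13 genes of the difference became 96 (85 and 11), 60 (53 and 7), 1 with a replicate block, 8 with a filter at 6, 1 without a variance trend, 1 at 0.01 and 21 at 0.1, and 0 to 32 with 1 library left out (0 to 28 higher, 0 to 4 lower). Replicate numbers were not taken as pairs. Deviations from the group means of same-numbered lysate libraries had r of 0.099, and those of other group pairs between -0.61 and 0.26. The r of -0.61, between wild type alone and KO-labelled alone, means that libraries of unlike number deviated alike. Pairing under another numbering, or a batch, was not tested. The replicate block gave 1086 genes with lysate (649 and 437), 1540 without (644 and 896) and 1 for the difference. Of the 151 genes named with a call with lysate, 64 kept it without KO-labelled lysate replicate 1, and no difference changed sign under any alternative. With the filter at 6 the B cell and T and NK cell lists had no gene left. The causes were not tested. Depth is unknown and 2 libraries a group limit the precision.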
